A study of Arabidopsis thaliana with 6 samples.

Results

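This account covers transcripts that were lower than in wild type in every array of plants lacking a normal CAMTA3 gene. The probe sets (groups of array probes that each report a transcript) were selected on their measured mutant and wild type values: one was taken when its highest log2 value over the 4 mutant arrays lay at least 0.4 below its lowest value over the 2 wild type arrays. Of 22746 probe sets, 65 met this limit, and 6 of them were left out by name (the probe set assigned to CAMTA3, AT1G62510, THI2.1, COR15A, GH9B8 and the plastid gene ndhJ), so 59 remained. SWEET4 and TBL26 were also named for leaving out, but their gaps of 0.35 and 0.08 did not reach the limit. The annotation named 1 gene for 34 of the 59, several genes for 3 and no gene for 22. The probe sets without a single gene are given by their identifiers.

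The tested plants were Arabidopsis thaliana of the mutant lines camta3-1 and camta3-2, set against wild type, all 3 weeks old. Each of the 3 groups had 2 arrays, labelled as biological replicates. The labels used here state neither the tissue nor what set the replicates of a group apart, so p-values measure the spread between these arrays. Both mutants are known as T-DNA insertion lines of the same gene, and each allele is 1 line.

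CAMTA3 is a calmodulin-binding transcription factor that recognises promoter elements with a CGCG core, and calcium signals act on it through calmodulin. Its best known role is to hold back defence that depends on salicylic acid, so that mutants express immune genes without a pathogen. It is also known to promote part of the rapid response to cold, which makes transcripts that are lower in its mutants of interest.

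Values were log2 RMA expression values, on which a difference of 1 is 2-fold. Levels of different probe sets are not compared as transcript amounts, since probes differ in brightness. Array medians lay between 6.18 and 6.26. Arrays of a group correlated at 0.992 to 0.995, and mutant with wild type arrays at 0.986 to 0.989. The probe set assigned to CAMTA3 when the set was defined has no gene in the annotation used here. It read 4.02 and 4.11 in camta3-1, 3.88 and 3.65 in camta3-2, and 6.32 and 6.18 in wild type. It was low in all 4 arrays labelled mutant and in neither labelled wild type, but where its probes lie relative to the insertions was not analysed here.

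The values that chose the 59 probe sets are the mutant and wild type values themselves, so their difference from wild type is a description and carries no test. The mutant minus wild type difference of their means ran from -2.35 to -0.55 on the log2 scale, with a median of -0.86, and the median level was 1.81-fold lower in the mutants. For 24 of them the mutant mean was at least 2-fold lower, and for 35 it was less than that. Over all probe sets the median difference was -0.05, and 35 probe sets had a mutant mean at least 2-fold lower, of which 24 are described here, 4 had been left out by name and 7 had a smaller gap or overlapping groups. The wild type means of the 59 ran from 4.88 to 10.78. Their mean over all 6 arrays had a median of 7.53, against 6.24 over all probe sets, and 6 of the 59 lay below the 40th percentile. At this scale of sampling, fewer cells of a type and less RNA per cell cannot be told apart.

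Selection by the gap differs from selection by a p-value. In limma, 34 of the 59 were called lower for the mean of both alleles (adjusted p under 0.05), where 0.255% of all probe sets were and 1.41% were called in either direction. Because the selection used this contrast, nothing follows from that share. All 4 mutant arrays lay below both wild type arrays, with any gap, for 15.8% of all probe sets, and by at least 0.4 for 0.286%. The opposite pattern, all mutant arrays above both wild type arrays by at least 0.4, was met by 1.42% of all probe sets. In camta3-1 alone 27 of the 59 were called lower, where 0.277% of all probe sets were (1.08% in either direction), and in camta3-2 alone 10, where 0.0791% were (0.734% in either direction). These counts could fall when 1 array was left out. That leaves 1 array in its group, so the values of the array and the lost replication cannot be told apart. Without wild type replicate 1, and also without wild type replicate 2, 1 of the 59 was called for the mean of both alleles, 1 for camta3-1 and 1 for camta3-2. For the mean of both alleles 21 were called without camta3-2 replicate 2. For camta3-1 10 were called without its replicate 1 and 15 without its replicate 2, and for camta3-2 0 were called without either of its own arrays. The probe sets just inside the limit were AT1G27030, AT3G61080 and AT1G13650, with gaps of 0.404, 0.407 and 0.415. Just outside were 260633_at, AT3G52900 and AT1G47410, with gaps of 0.396, 0.395 and 0.393. AT1G27030 read 7.81 and 7.81 in camta3-1, 8.06 and 7.58 in camta3-2, and 8.50 and 8.46 in wild type, and AT1G13650 read 9.38 and 9.16 in camta3-1, 9.24 and 9.53 in camta3-2, and 9.95 and 10.09 in wild type. The first outside, 260633_at, read 4.75 and 4.83 in camta3-1, 4.63 and 4.83 in camta3-2, and 5.23 and 5.32 in wild type, and its gap was close to those of the probe sets inside the limit. AT3G52900 read 6.07 and 6.27 in camta3-1, 6.12 and 5.98 in camta3-2, and 6.74 and 6.66 in wild type. AT1G47410 read 5.66 and 5.52 in camta3-1, 5.30 and 5.15 in camta3-2, and 6.08 and 6.06 in wild type.

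**Figure D1:**
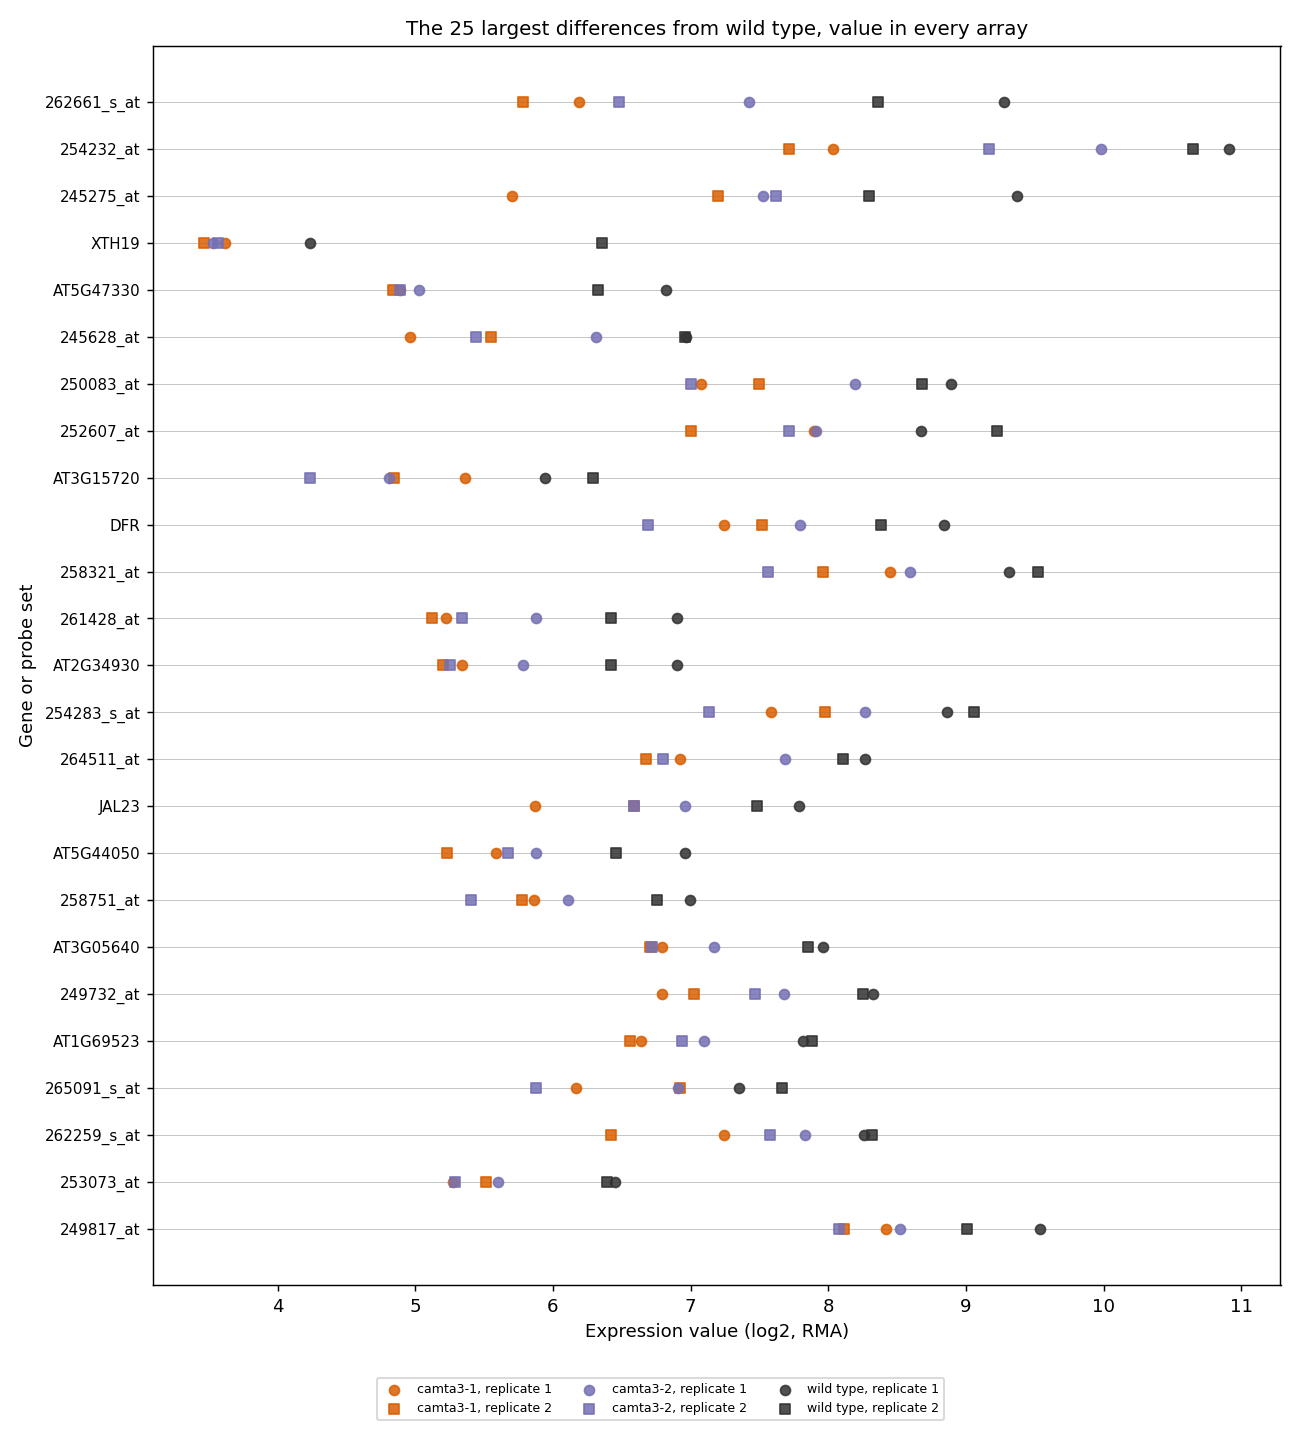
Log2 expression value (horizontal axis) of the 25 probe sets with the largest difference from wild type (rows, the largest at the top), with 1 symbol per array: orange for camta3-1, violet for camta3-2 and dark grey for wild type, circles for replicate 1 and squares for replicate 2. In each row both wild type symbols lie to the right of all 4 mutant symbols, as the selection required, and the XTH19 wild type arrays lie 2.12 apart.

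Genes acting on the cell wall and plant surface made up 6 of the 34 with a name. XTH19 encodes a xyloglucan endotransglucosylase/hydrolase, an enzyme that cuts and rejoins the xyloglucan chains of the growing wall. XTH19 read 3.62 and 3.47 in camta3-1, 3.53 and 3.57 in camta3-2, and 4.24 and 6.36 in wild type. The 4 mutant arrays were within 0.15 of each other near the dim end of the scale, while the wild type arrays differed by 2.12, and the difference of the means was -1.75, against -0.69 without wild type replicate 2. Among 9 measured XTH genes, XTH19 had the lowest difference, the highest was 0.05, and the median was -0.03.

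Pectin enzymes were represented by AT3G15720 and AT3G43270. AT3G15720, of the polygalacturonase type that cuts pectin, read 5.36 and 4.85 in camta3-1, 4.81 and 4.23 in camta3-2, and 5.94 and 6.29 in wild type. Its mutant mean was 4.81 ± 0.46 (SD, n = 4), against 6.11 ± 0.25 (SD, n = 2) in wild type, a 2.46-fold lower level with the lowest value in camta3-2 replicate 2. AT3G43270, a pectin methylesterase family gene whose products remove methyl groups from pectin, read 7.49 and 7.39 in camta3-1, 7.48 and 7.34 in camta3-2, and 8.23 and 8.32 in wild type. Its mutant arrays spanned 0.15, its gap was 0.74, and its mean was 1.80-fold lower in the mutants.

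A pair of GDSL-type esterase genes, a large family of secreted lipid-cleaving enzymes, had differences from wild type of similar size. AT3G48460 read 7.96 and 7.86 in camta3-1, 8.28 and 8.07 in camta3-2, and 8.79 and 8.78 in wild type. AT4G28780 read 8.61 and 8.51 in camta3-1, 8.79 and 8.43 in camta3-2, and 9.32 and 9.28 in wild type. Their mutant means were 1.67-fold and 1.64-fold lower. AT3G26960, of the Ole e 1 allergen type of extracellular proteins, had 7.99 and 7.78 in camta3-1, 8.17 and 8.02 in camta3-2, and 8.91 and 8.60 in wild type, a 1.70-fold lower mean. The wall-loosening list (expansins and other XTH genes) had 5 of 17 genes measured, of which none was called for the mean of both alleles (limma), and its median difference was 0.05 against -0.05 over all probe sets. Within that list the expansin-like gene EXLA1 was at -0.72 and the expansin gene EXPA8 at 0.75, with adjusted p = 0.326 and 0.133 (limma).

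Enzymes of specialised metabolism and conjugation accounted for 7 named genes. DFR, the dihydroflavonol reductase that commits flavonoids to anthocyanin pigments, read 7.24 and 7.52 in camta3-1, 7.79 and 6.69 in camta3-2, and 8.84 and 8.38 in wild type. Its mutant mean was 7.31 ± 0.47 (SD, n = 4), against 8.61 ± 0.33 (SD, n = 2) in wild type, and the level was 2.46-fold lower. Of the 9 genes in the flavonoid and anthocyanin list, the other measured one was UF3GT, a glycosyltransferase that decorates anthocyanins. UF3GT read 6.08 and 6.48 in camta3-1, 6.89 and 5.60 in camta3-2, and 7.65 and 7.17 in wild type. It missed the selection because camta3-2 replicate 1 came within 0.28 of wild type, and its mean difference was -1.15 (limma, adjusted p = 0.198). In both genes the highest and the lowest mutant value were those of camta3-2, replicate 1 the highest and replicate 2 the lowest.

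AT1G69523 encodes a methyltransferase-type protein and had a narrower spread. It read 6.64 and 6.56 in camta3-1, 7.10 and 6.94 in camta3-2, and 7.82 and 7.88 in wild type. The camta3-1 arrays were lowest, the camta3-2 arrays stood between, and the mutant mean was 2.06-fold lower than wild type. AT3G44970, a cytochrome P450 gene, was dim throughout, at 4.31 and 4.37 in camta3-1, 4.63 and 4.26 in camta3-2, and 5.32 and 5.18 in wild type. AT5G05890, a UDP-glycosyltransferase gene of a family that attaches sugars to small molecules, read 5.64 and 5.48 in camta3-1, 5.83 and 5.61 in camta3-2, and 6.48 and 6.28 in wild type. Mean levels of AT3G44970 and AT5G05890 in the mutants were 1.81-fold and 1.67-fold lower.

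The remaining 3 genes of this kind differed in spread. AT5G61290, a flavin-containing monooxygenase gene, read 5.51 and 5.41 in camta3-1, 5.45 and 5.29 in camta3-2, and 6.09 and 6.15 in wild type. BGLU33, of the beta-glucosidase family that releases sugars from glucosides, read 7.80 and 7.72 in camta3-1, 7.97 and 8.00 in camta3-2, and 8.43 and 8.60 in wild type. Their differences of -0.71 and -0.64 were among the smaller ones. The 20 measured BGLU genes had differences from -0.67 to 0.70, with a median of -0.10. AT4G02850, of the PhzF type of isomerase-like proteins, read 7.37 and 7.21 in camta3-1, 7.66 and 7.00 in camta3-2, and 8.25 and 8.08 in wild type. Its mutant arrays spanned 0.67, more than its gap of 0.42.

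**Figure D2:**
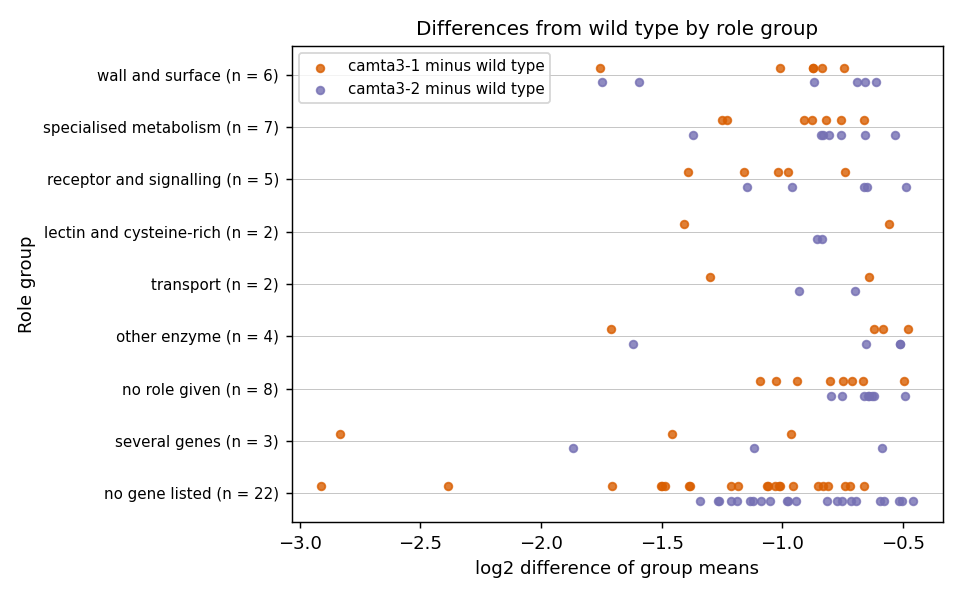
Log2 difference of the group mean from wild type (horizontal axis) for each of the 59 probe sets, by role group (rows, with the number of probe sets), with orange points for camta3-1 and violet points for camta3-2. All points are below 0, as the selection required, and the largest differences, near -2.9 in camta3-1, are among probe sets with several genes or no gene in the annotation.

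Receptors and signalling proteins numbered 5. AT2G34930 belongs to the leucine-rich repeat family, whose members include receptors of the immune system. AT2G34930 read 5.34 and 5.20 in camta3-1, 5.79 and 5.25 in camta3-2, and 6.90 and 6.42 in wild type, a 2.41-fold lower mean in the mutants. The leucine-rich repeat kinase gene AT3G46370 read 5.71 and 4.86 in camta3-1, 5.67 and 5.63 in camta3-2, and 6.29 and 6.31 in wild type. In AT3G46370 camta3-1 replicate 2 stood well below the other mutant arrays, and the difference of the means was -0.83.

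AT3G05640 encodes a type 2C protein phosphatase, a class that removes phosphate from serine and threonine. It read 6.79 and 6.70 in camta3-1, 7.17 and 6.72 in camta3-2, and 7.96 and 7.85 in wild type. The groups were 0.68 apart at the closest, and the mutant mean of 6.85 ± 0.22 (SD, n = 4) was 2.08-fold lower than the wild type mean of 7.91 ± 0.08 (SD, n = 2). AFR, an F-box protein that acts positively in far-red light signalling, read 7.10 and 6.93 in camta3-1, 7.32 and 7.21 in camta3-2, and 7.75 and 7.75 in wild type. AT3G28220, with a TRAF-like (MATH) domain, read 8.37 and 8.52 in camta3-1, 8.81 and 8.71 in camta3-2, and 9.55 and 9.30 in wild type. For all 5 genes of this kind the camta3-2 mean lay above the camta3-1 mean, by 0.20 to 0.37.

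Transporters, a lectin and a cysteine-rich protein gave 4 more genes. AT5G44050, a MATE-type gene whose family exports organic compounds, read 5.58 and 5.23 in camta3-1, 5.88 and 5.67 in camta3-2, and 6.96 and 6.46 in wild type, a 2.16-fold lower mean. AT1G67300, a sugar transporter-type gene, read 7.80 and 7.81 in camta3-1, 7.79 and 7.71 in camta3-2, and 8.38 and 8.51 in wild type. The 4 mutant values of AT1G67300 spanned 0.10, the narrowest of the 59. JAL23, a jacalin-related lectin that by its type binds sugars, read 5.87 and 6.59 in camta3-1, 6.96 and 6.59 in camta3-2, and 7.78 and 7.48 in wild type. Over all 4 measured JAL genes the median was -0.15 and the highest difference 0.05. AT2G43535, of the defensin-like cysteine-rich type, read 7.12 and 6.95 in camta3-1, 6.90 and 6.61 in camta3-2, and 7.60 and 7.58 in wild type, and its lower values were in camta3-2.

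Among the other enzymes AT5G47330 had the widest gap of the whole set, at 1.30. This alpha/beta-hydrolase gene read 4.89 and 4.84 in camta3-1, 5.03 and 4.89 in camta3-2, and 6.82 and 6.33 in wild type. Its mutant mean was 4.91 ± 0.08 (SD, n = 4), against 6.57 ± 0.35 (SD, n = 2) in wild type, a 3.17-fold lower level that was nearly the same in both alleles, at -1.71 in camta3-1 and -1.62 in camta3-2. AT1G69020, of the prolyl oligopeptidase family of peptide-cleaving enzymes, read 4.39 and 4.42 in camta3-1, 4.22 and 4.25 in camta3-2, and 4.90 and 4.86 in wild type. AT4G25600, a 2-oxoglutarate-dependent dioxygenase-type gene, read 5.93 and 6.16 in camta3-1, 6.21 and 6.10 in camta3-2, and 6.62 and 6.70 in wild type. AT3G61080, of the fructosamine kinase type that repairs sugar-modified proteins, read 7.90 and 7.85 in camta3-1, 7.96 and 7.92 in camta3-2, and 8.53 and 8.37 in wild type. These 3 had the smallest differences of the 59, at -0.57, -0.56 and -0.55.

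A further 8 named genes are given without a role. AT5G43150 read 8.08 and 8.11 in camta3-1, 8.45 and 8.64 in camta3-2, and 9.09 and 9.29 in wild type. AT1G20070 read 8.31 and 7.59 in camta3-1, 8.36 and 7.83 in camta3-2, and 8.88 and 8.91 in wild type. The camta3-2 arrays were both above the camta3-1 arrays in AT5G43150, while in AT1G20070 the lower array of each allele was replicate 2. AT5G66740 read 3.98 and 3.83 in camta3-1, 4.28 and 4.33 in camta3-2, and 4.79 and 5.07 in wild type, so it was dim in all arrays. The locus AT5G03190, listed under the symbol CPUORF47 for a conserved peptide of an upstream reading frame, read 7.11 and 7.25 in camta3-1, 7.39 and 7.07 in camta3-2, and 7.84 and 8.12 in wild type. AT1G13650, AT1G27030, AT1G26920 and AT4G02910 had mean differences of -0.69, -0.66, -0.60 and -0.57.

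The probe sets without a single named gene included the largest differences. The probe set 262661_s_at, which matches several genes, read 6.19 and 5.78 in camta3-1, 7.43 and 6.48 in camta3-2, and 9.28 and 8.36 in wild type, a 5.10-fold lower mean. The probe set 254232_at read 8.03 and 7.71 in camta3-1, 9.98 and 9.16 in camta3-2, and 10.91 and 10.65 in wild type, a 4.17-fold lower mean. In both, the camta3-1 arrays were lowest and the camta3-2 arrays lay between them and wild type. The probe set 245275_at read 5.70 and 7.20 in camta3-1, 7.52 and 7.62 in camta3-2, and 9.37 and 8.30 in wild type, with camta3-1 replicate 1 far below the other mutant arrays.

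Of the other probe sets among the 25 largest differences, 245628_at read 4.96 and 5.55 in camta3-1, 6.31 and 5.44 in camta3-2, and 6.97 and 6.96 in wild type. The probe set 252607_at read 7.90 and 7.00 in camta3-1, 7.91 and 7.72 in camta3-2, and 8.67 and 9.22 in wild type. Their mutant means were 2.63-fold and 2.49-fold lower. The probe set 261428_at read 5.22 and 5.12 in camta3-1, 5.88 and 5.34 in camta3-2, and 6.90 and 6.42 in wild type. Its 6 values were close to those of AT2G34930, and whether the probe sets share a transcript was not tested. The probe set 264511_at read 6.92 and 6.68 in camta3-1, 7.68 and 6.80 in camta3-2, and 8.26 and 8.11 in wild type. The probe set 258751_at read 5.86 and 5.78 in camta3-1, 6.11 and 5.41 in camta3-2, and 7.00 and 6.76 in wild type.

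The smallest differences among the 25 were near 2-fold. The probe set 249732_at read 6.79 and 7.02 in camta3-1, 7.68 and 7.47 in camta3-2, and 8.33 and 8.25 in wild type. The probe set 262259_s_at, matching several genes, read 7.24 and 6.42 in camta3-1, 7.83 and 7.58 in camta3-2, and 8.26 and 8.32 in wild type. In both, camta3-2 lay between camta3-1 and wild type. The probe set 253073_at read 5.27 and 5.51 in camta3-1, 5.60 and 5.29 in camta3-2, and 6.45 and 6.39 in wild type, and 249817_at read 8.42 and 8.12 in camta3-1, 8.52 and 8.08 in camta3-2, and 9.54 and 9.01 in wild type. Their alleles overlapped. Over all 22 probe sets without a gene, the differences from wild type ran from -2.06 to -0.58 with a median of -1.03.

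**Figure D3:**
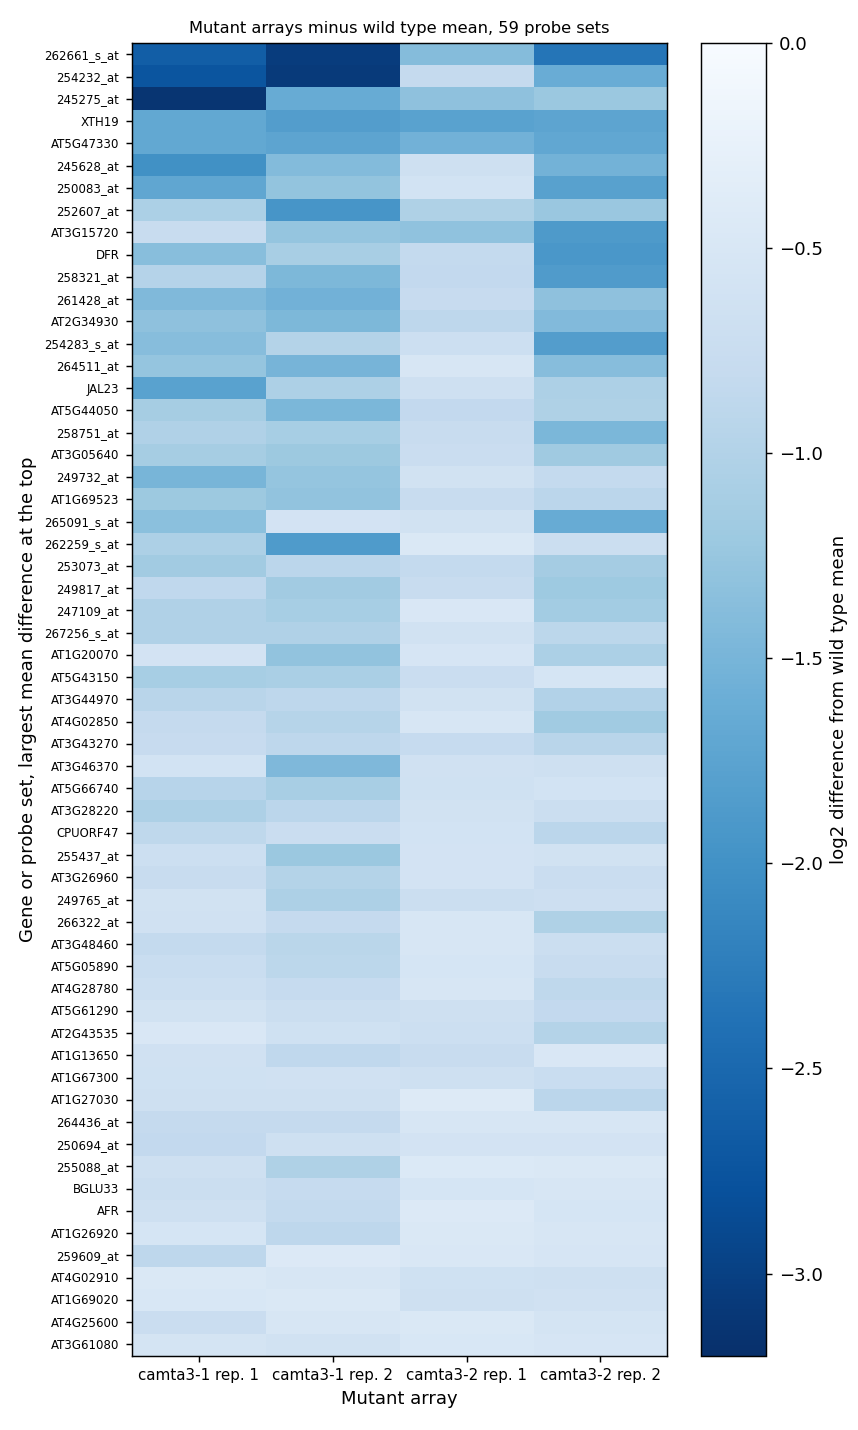
Log2 difference of each mutant array (columns) from the wild type mean for the 59 probe sets (rows, ordered by mean difference), with darker blue for lower values. The camta3-2 replicate 1 column is the palest in most rows, and it held the highest mutant value for 41 of the 59.

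The mutant arrays were not equally low. The highest of the 4 mutant values was that of camta3-2 replicate 1 for 41 of the 59 (69.5%), against 32.0% of all probe sets. The selection used this highest value, which sets the gap, so its shares describe the 59 and carry no test. The other 3 arrays held it for 6 (camta3-2 replicate 2), 8 (camta3-1 replicate 1) and 4 (camta3-1 replicate 2). Over all probe sets their shares were 17.2%, 21.4% and 29.4%. The lowest value was that of camta3-1 replicate 2 for 28 (47.5%), against 24.8% of all probe sets. It was that of camta3-2 replicate 2 for 20 (33.9%), close to the 32.5% over all probe sets. Medians over the 59 were 7.10 and 6.95 in the camta3-1 arrays, 7.48 and 7.00 in the camta3-2 arrays, and 8.19 and 8.14 in the wild type arrays. The mutant values spanned more than the gap to wild type for 30 of the 59, and more than 1 on the log2 scale for 13. In wild type the 2 arrays were within 0.1 of each other for 24 and over 0.5 apart for 6, and either could be the lower one, replicate 1 for 26 and replicate 2 for 33.

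A wide spread between the camta3-2 replicates marked one pattern, singled out after the values were seen. Over all probe sets camta3-2 replicate 2 was below replicate 1 for 59.3%, with a median difference of -0.05, and its array median of 6.18 was the lowest. Over the 59 it was the lower for 50, with a median difference of -0.21. Replicate 2 was more than 0.9 below replicate 1 for 6 of the 59 and for 131 of all 22746 probe sets. These 6 were DFR, 250083_at, 254283_s_at, 258321_at, 265091_s_at and 262661_s_at. The probe set 250083_at read 7.08 and 7.50 in camta3-1, 8.20 and 7.00 in camta3-2, and 8.89 and 8.68 in wild type. The probe set 254283_s_at read 7.58 and 7.98 in camta3-1, 8.27 and 7.13 in camta3-2, and 8.87 and 9.06 in wild type. In both, as in DFR and UF3GT, the camta3-1 arrays lay between the camta3-2 arrays, with replicate 2 the higher. The probe set 265091_s_at, matching several genes, read 6.17 and 6.93 in camta3-1, 6.91 and 5.87 in camta3-2, and 7.35 and 7.66 in wild type. The probe set 258321_at read 8.45 and 7.96 in camta3-1, 8.59 and 7.56 in camta3-2, and 9.31 and 9.52 in wild type, with replicate 2 the lower array in both alleles.

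**Figure D4:**
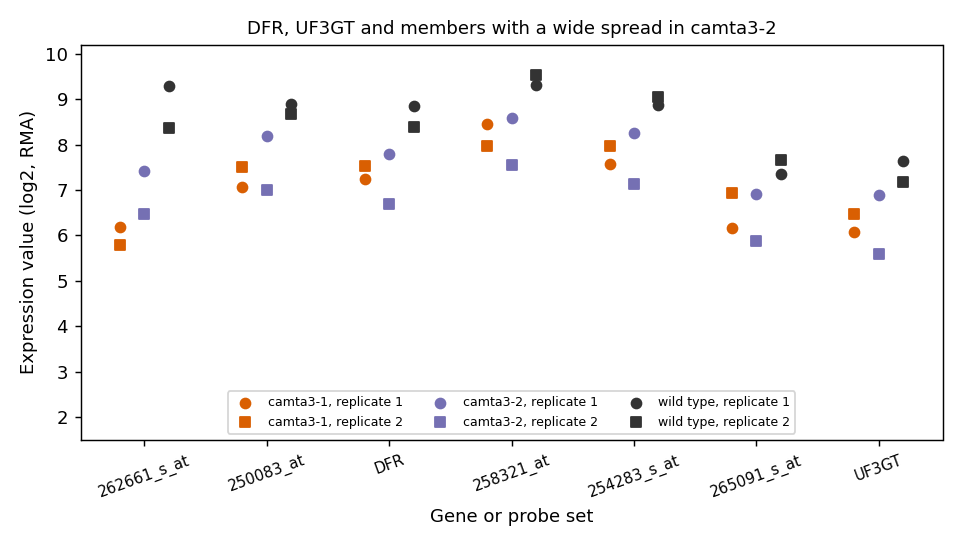
Log2 expression value (vertical axis) in each array for the 6 probe sets whose camta3-2 replicates were more than 0.9 apart, and for UF3GT, which was not selected. Orange is camta3-1, violet camta3-2 and dark grey wild type, with circles for replicate 1 and squares for replicate 2. In each column the camta3-2 square lies well below the camta3-2 circle, and for UF3GT these values are 5.60 and 6.89.

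The difference between the alleles was not itself the selection rule and was tested. The rule did cap the highest of the same 4 mutant values. Counts over the 59 are therefore a description, and all probe sets, which were not selected in this way, are not a matched background. None of the 59 was called in limma for camta3-2 minus camta3-1, the smallest adjusted p being 0.597, and 11 had an unadjusted p under 0.05. Over all probe sets 0.0044% were called, which is 1 probe set, and 6.34% had an unadjusted p under 0.05. With 2 arrays per allele only large differences could have passed, and the misses do not show that the alleles are alike. The camta3-2 mean was above the camta3-1 mean for 46 of the 59, against 10643 of all 22746 probe sets, with a median difference of 0.16 against -0.01. Both camta3-2 arrays lay above both camta3-1 arrays for 23 of the 59, where 14.9% of all probe sets did, and below them for 5, where 19.7% of all did. These counts share the same 4 arrays, and without camta3-2 replicate 1 the camta3-2 mean was higher for 34 of the 59, with a median difference of 0.05. Without camta3-2 replicate 2 the median was 0.36.

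The widest differences between alleles were in 254232_at, 245275_at and 262661_s_at. They were 1.70 ± 0.26, 1.12 ± 0.49 and 0.97 ± 0.37 higher in camta3-2 than in camta3-1 (standard error, limma), with adjusted p = 0.597, 0.778 and 0.778. At the other end AT3G15720, AT2G43535 and AT1G69020 were lower in camta3-2, at -0.58 ± 0.24, -0.28 ± 0.13 and -0.17 ± 0.10, with adjusted p = 0.778, 0.792 and 0.822 (limma). Single arrays moved most of these 6 differences. For 254232_at the difference was 1.29 without camta3-2 replicate 1 and 2.11 without camta3-2 replicate 2. For 245275_at the difference was 0.37 without camta3-1 replicate 1 and 1.87 without camta3-1 replicate 2. For 262661_s_at it was 0.49 without camta3-2 replicate 1 and 1.44 without camta3-2 replicate 2. For AT3G15720 it was -0.32 without camta3-1 replicate 1, -0.87 without camta3-2 replicate 1 and -0.29 without camta3-2 replicate 2. For AT2G43535 it was -0.42 without camta3-2 replicate 1 and -0.13 without camta3-2 replicate 2. None of the 6 changed sign. XTH19 had a difference of 0.01 between alleles, and AT5G47330 one of 0.09. Relative to wild type the 59 had a median difference of -0.77 in camta3-2 and -0.98 in camta3-1, and both values use the same wild type arrays.

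**Figure D5:**
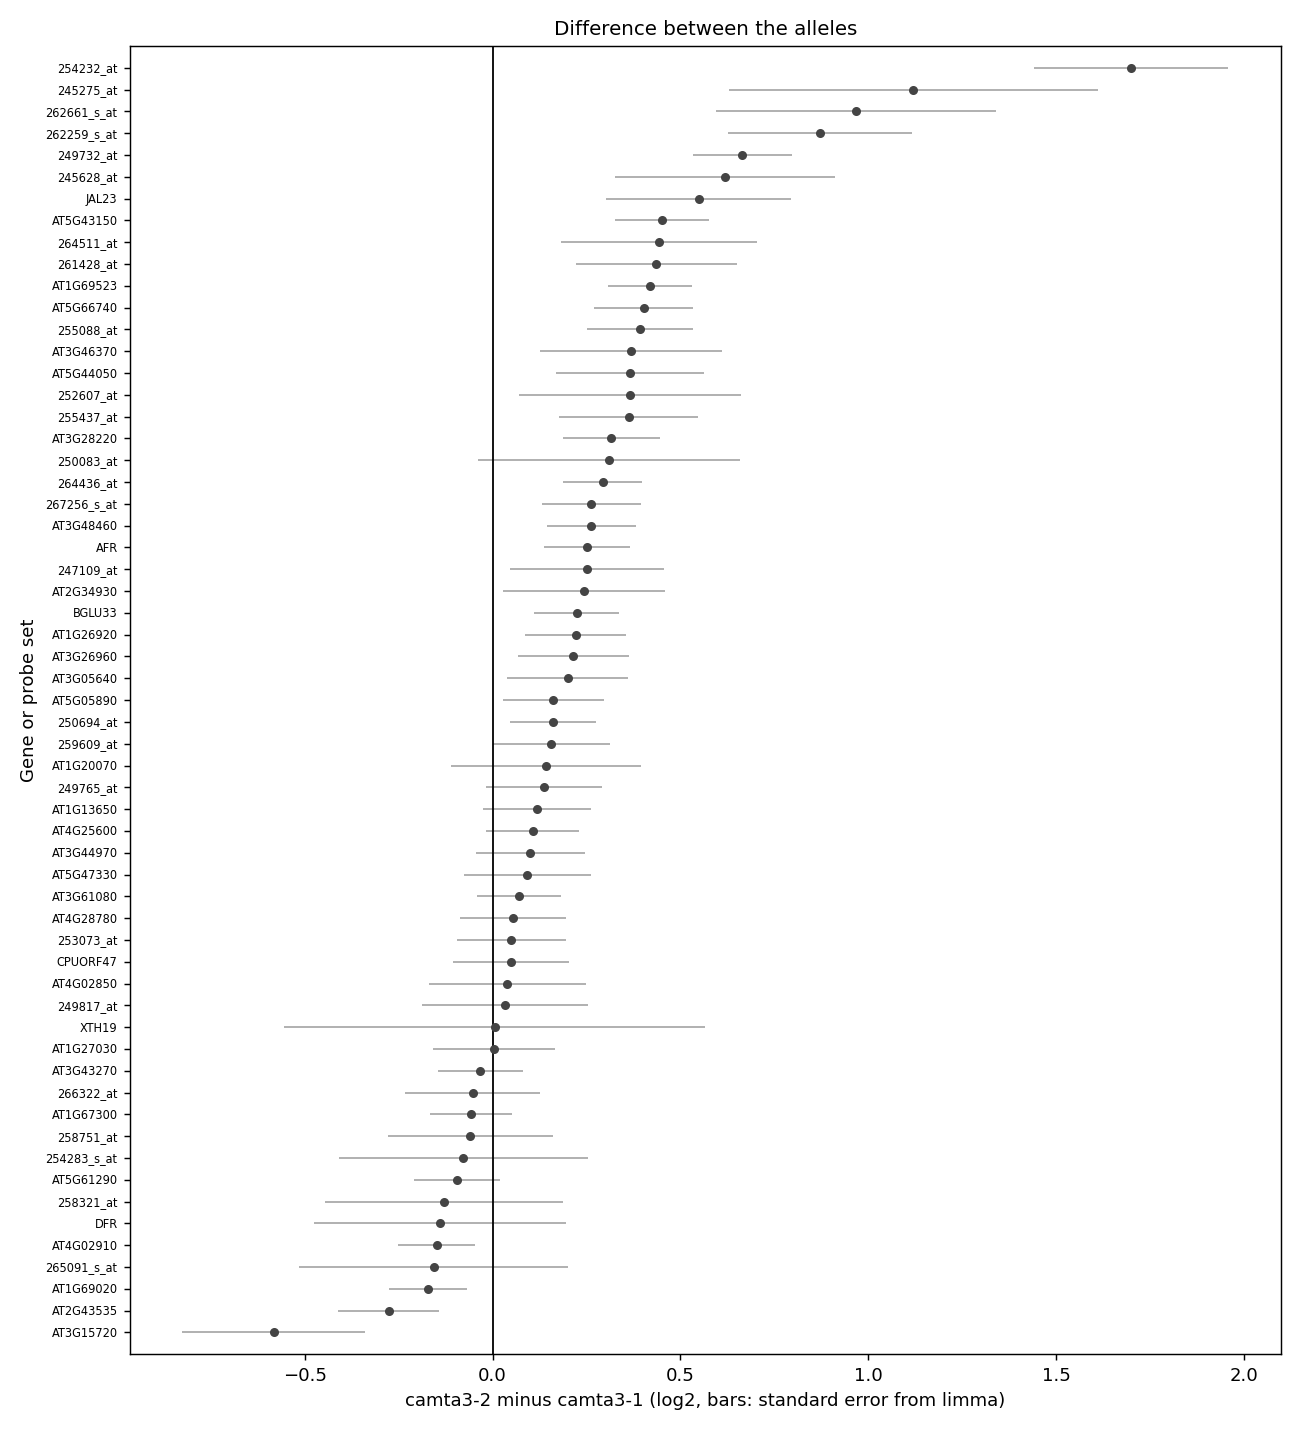
Difference of the camta3-2 mean minus the camta3-1 mean on the log2 scale (points, horizontal axis) with its standard error from limma (bars) for the 59 probe sets (rows, in order of the difference). Most points, 46 of 59, lie to the right of 0, and the largest is 254232_at at 1.70.

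Neighbouring genes on the chromosome were looked up in the gene table by order alone. No 2 of the 34 named genes had 3 or fewer genes between them, and the closest were AT4G02850 and AT4G02910, with 5 between. Of the genes directly beside them, 35 were measured, of which none was called in either direction (limma), where 0.255% of all probe sets were called lower and 1.15% higher. Their median difference was -0.11, against -0.05 over all probe sets, with a range of -0.48 to 0.37. It was below 0 for 26 of the 35, against 14241 of all 22746 probe sets. All mutant arrays lay below both wild type arrays for 11 of the 35, where 15.8% of all probe sets had this pattern. The lowest, beside AT1G69523, was AT1G69526, which read 4.37 and 4.23 in camta3-1, 3.96 and 4.36 in camta3-2, and 4.72 and 4.70 in wild type. Beside AT5G47330 the related gene AT5G47340 was at -0.11, and beside AT5G05890 the related gene AT5G05880 was at -0.37. AT5G47340 was dim, at 3.49 to 3.73 in all arrays, while AT5G47330 itself was at -1.66.

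Pathway lists, chosen with earlier results of these data known, were covered thinly by the annotation. A listed gene counts as measured only where a probe set carries its name alone. In the cold response list 3 of 14 genes were measured. None was called for the mean of both alleles (limma), where 1.41% of all probe sets were. The median difference was -0.66, against -0.05 over all probe sets. COR15A, left out by name above, was at -1.21 (limma, adjusted p = 0.0534). COR15B was at -0.66 with adjusted p = 0.138, and COR47 was at -0.58 with adjusted p = 0.339 (limma). The camta3-2 arrays of these cold genes lay apart, at 11.36 and 10.47 for COR15A, 10.84 and 10.23 for COR15B, and 11.05 and 10.16 for COR47. For COR47, camta3-2 replicate 1 lay between the wild type arrays, which read 11.08 and 10.89. In the aliphatic glucosinolate list 2 of 23 were measured, BCAT4 at -0.42 and UGT74C1 (AT2G31790) at -0.29, with adjusted p = 0.148 and 0.238 (limma). The jasmonate list had 3 of 14 measured, with 1 called lower (limma), THI2.1, where 0.255% of all probe sets were called lower. THI2.1 had met the limit of the gap on these same values, so nothing follows from its call. The other 2 were PDF1.2 and PDF1.2b, at -0.89 and -0.29, with adjusted p = 0.588 and 0.827 (limma). PDF1.2 read 6.61 and 6.29 in camta3-1, 6.64 and 6.05 in camta3-2, and 6.03 and 8.54 in wild type. PDF1.2b read 6.02 and 5.29 in camta3-1, 5.74 and 5.63 in camta3-2, and 5.16 and 6.76 in wild type. In both, wild type replicate 1 lay below all 4 mutant arrays and replicate 2 above them, so the negative differences rest on wild type replicate 2 alone. The auxin list had 3 of 13 measured and a median of 0.13, and the clock gene GI was at 0.07, with no call in either. None of these lists held a selected gene, which for the cold and jasmonate lists follows from the names left out. COR15A and THI2.1 had both met the limit. None of the listed aquaporins, sugar starvation genes or salicylic acid defence genes was measured under a single gene name.

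Markers of organs and cell types were measured for a few genes. The nuclear photosynthesis genes RCA and LHCB4.1, the 2 measured of 14 listed, were bright in all groups. Their list means were 13.84 to 13.85 in camta3-1, 13.85 to 13.92 in camta3-2 and 13.83 in both wild type arrays. The highest mean of any probe set was 14.08, and whether probe sets this bright could show a change was not tested. The 3 measured root markers of 7 had list means of 5.03 to 5.09 in camta3-1, 4.88 to 5.25 in camta3-2, and 4.99 to 5.32 in wild type. FAMA, a regulator of guard cell formation, was the 1 measured of 4 guard cell markers and averaged 7.09 in camta3-1, 7.08 in camta3-2 and 7.51 in wild type (difference -0.43, limma adjusted p = 0.191). TRY, the 1 measured of 4 trichome markers, was at -0.29 in camta3-1 and 0.34 in camta3-2 relative to wild type. These opposite values gave a difference of 0.02 for the mean of both alleles. TRY was 0.63 higher in camta3-2 than in camta3-1 (limma, adjusted p = 0.778). None of the listed flower, seed, epidermis or phloem markers was matched to a probe set with a single gene name. A part of organ or cell composition in the 59 differences was not tested.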

How the data were processed

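Total RNA was measured on Affymetrix arrays, 1 per sample. The authors deposited log2 expression values per probe set, made with RMA and Partek per the submitters' processing notes, and no version or genome build is named there. RMA makes the arrays' distributions alike and shrinks differences of dim probe sets. Of 22810 rows, 64 controls were left out.

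Genes were named from the platform annotation (1 gene for 13513 probe sets, several for 503, none for 8730), and symbols and gene order from the RefSeq gene table of TAIR10.1. All 34 named genes matched it. No coordinates or sequences are given, and the planned search of promoters was not run, because no sequence was at hand.

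The fit on all 6 arrays was made in R 4.3.3 (limma 3.58.1), with 1 mean per group, 3 residual and 4.43 prior degrees of freedom, and Benjamini-Hochberg adjustment over 22746 probe sets. Its script was tested on simulated data. Members and lists were chosen with earlier results of these data known. Values in every array are given for the 25 largest differences, for the selected gene found in a list (DFR), for the 3 highest and 3 lowest differences between alleles, for the 3 probe sets on each side of the limit and for selected genes of 1 family, and were extended after the values were seen to most selected genes with a name and to a few other genes. The genes beside them and the camta3-2 spread were added after the values were seen. Other settings tried were the replicate number as a block, cyclic loess between arrays, centring on the median, a robust prior with a trend, a filter at the 40th percentile (log2 5.33), other gaps, and leaving out each array. Figures used Python 3.11.15 and matplotlib 3.10.9.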

Additional observations from a re-analysis of the deposited data

How the results depend on the processing

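The number of selected probe sets, 59, followed the limit: 145 at a gap of 0.3, 30 at 0.5 and 3561 with no minimum gap. It was 45 after cyclic loess, 62 after median centring (55 shared) and 53 above the 40th percentile. With 1 array left out it was 71 to 264, since fewer arrays constrain less, the largest counts being those without camta3-2 replicate 1 (178), wild type replicate 1 (209) and wild type replicate 2 (264). Calls in limma for the mean of both alleles were 320, and 5 to 458 with 1 array left out. They were 5 without wild type replicate 1 and 60 when its replicate 2 was left out. For camta3-1 they were 246, and 2 to 333, with 114 when its replicate 1 was left out, and 2 and 38 when wild type replicate 1 or 2 was. For camta3-2 they were 167, and 5 to 270, with 11 and 55 when its own replicate 1 or 2 was left out, 5 and 42 for the wild type arrays, and 270 for either camta3-1 array. With the replicate number as a block the counts were 493, 430 and 280, and the cause was not tested. Over all probe sets the replicate difference correlated at 0.402 between the mutants, -0.04 between camta3-1 and wild type and 0.13 between camta3-2 and wild type. Over the 59 these correlations were -0.11, -0.23 and 0.19. With 1 replicate difference per group, they cannot show whether equal replicate numbers mark a shared batch, and the labels do not say. Between the alleles 1 probe set was called, also under the block, and 1 to 7 with 1 array left out (2 and 7 without camta3-2 replicate 1 or 2). None of the 59 was called between alleles in any of these settings, the smallest adjusted p (limma) ranging from 0.0571, without camta3-2 replicate 2, to 0.908. The median difference between alleles over the 59 was 0.162, and 0.0524 to 0.355 with 1 mutant array left out, a setting added after seeing the data. It was 0.199 after cyclic loess and 0.206 after median centring, also added then. The 2 arrays per group limit the precision.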
